A study of Rattus norvegicus with 26 samples.

Results

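Fat attached to the outside of the thoracic aorta is described here through the saline-dosed animals of a drug study in spontaneously hypertensive rats, whose raised blood pressure is inherited. The 2 sides were chosen by the measured level of Adipoq on the 8 saline arrays, Adipoq being the gene of the fat cell hormone adiponectin. The 3 arrays at a level of 5 or more (replicates 3, 7 and 8) are called fat-rich, and the other 5 (replicates 1, 2, 4, 5 and 6) fat-poor. They are 8 of the 26 arrays. A level is the log2 signal of a probe minus the 75th percentile of its array, so 1 unit is a doubling. The remaining arrays come from male rats of the same strain given, by mouth for 4 weeks, the herbal medicine Songling Xuemaikang capsule (SXC), at 236.25 mg per kg (low dose, n = 6) or 708.75 mg per kg (high dose, n = 6), or valsartan, an angiotensin receptor antagonist, at 21.6 mg per kg (n = 6). The saline rats, also male, received 7.5 mL per kg (n = 8). All were killed at 28 days, and total RNA of each thoracic aorta was put on a 1-colour array. No rats with normal blood pressure were analysed here.

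Perivascular fat cells store triglyceride and secrete hormones that act on the vessel wall. Around the thoracic aorta of rodents this depot resembles brown fat, whose cells are packed with mitochondria and burn fatty acids, with the uncoupling protein Ucp1 turning the energy into heat. White fat cells, by contrast, hold 1 large droplet and few mitochondria. Genes of both programmes depend on Pparg, the master transcription factor of fat cells, which binds as a pair with a retinoid X receptor to repeats of the half-site AGGTCA.

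Adipoq chose the saline arrays and is left out of the results. Its level was 6.22, 6.27 and 5.54 on fat-rich arrays 3, 7 and 8, against 2.05, 4.31, 3.57, 2.06 and 4.36 on fat-poor arrays 1, 2, 4, 5 and 6. The member just inside the limit is array 8 (5.54) and the one just outside is array 6 (4.36). Values of the saline arrays that follow are descriptions with no test, because all genes of these aortas were measured together with Adipoq. The 18 treated arrays took no part in the split and had Adipoq levels between 0.29 and 3.82, all under the limit. They averaged 2.41 ± 0.82 with low-dose SXC, 2.85 ± 0.92 with high-dose SXC and 1.69 ± 0.89 with valsartan (SD, n = 6 each). Tests were made there, as the slope of a gene's level on that of Adipoq.

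The saline arrays were not 8 separate profiles. They lay on 2 slides of 4, scanned on 1 day at 1 detector gain. Over 7278 probes well above background on all 26 arrays, array 8 differed from the plain average of the signals of arrays 2 and 3 by an SD of 0.10 (log2). Array 4 differed from the average of arrays 1 and 2 by 0.16, whereas no treated array came closer than 0.23 to an average of a pair from its group. The pattern held for single genes. Npy was 2.85 on array 8, and the average of arrays 2 and 3 gives 2.86. Ucp1 was 6.14 on array 8, and that average gives 6.05. Deviations from the mean of a slide's 4 arrays correlated across these probes between arrays at 3 of the 4 slide positions, with r = 0.92 for arrays 3 and 7, 0.80 for arrays 2 and 6 and 0.86 for arrays 1 and 5. At the fourth position, arrays 4 and 8, r was -0.11. Counts over all probes are also given without arrays 4 and 8, and list counts where they moved by over 1.5 times. The share of probes well above background was 67.3 to 75.5% on fat-rich arrays and 71.8 to 76.2% on fat-poor arrays. On treated arrays it was 28.9 to 79.6%, and gain was lower for 4 high-dose SXC arrays and all valsartan arrays.

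Of 23743 probes tested, 1772 (7.46%, 1196 named genes) were at least 1 (log2) higher in fat-rich arrays with no overlap between the sides. Another 1466 (6.17%, 933 named genes) were lower by that rule. The median difference over all tested probes was -0.13. Without arrays 4 and 8 there were 2364 higher and 2777 lower, and without array 8 alone 2735 were lower. With normexp background correction 1256 were higher and 666 lower. Counting differences of any size with no overlap, 3884 were higher and 6643 lower, so the balance between the directions depends on the limit and on array 8. In whole aortas, fewer cells of a type and less RNA per cell cannot be told apart.

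White fat cell genes were higher in the fat-rich arrays. Of 21 measured members, Adipoq excluded, 16 were higher by the rule and 0 lower, with a median difference of 3.16. Pck1, which supplies glycerol for triglyceride in fat cells, stood at 5.24, 5.04 and 4.19 on fat-rich arrays 3, 7 and 8, against -1.14, 1.19, 0.43, -1.50 and 1.04 on fat-poor arrays 1, 2, 4, 5 and 6, a difference of 4.82. Cfd, the secreted protease adipsin, stood at 4.78, 4.66 and 4.08 on fat-rich arrays, against 1.19, 2.89, 2.24, 1.13 and 2.87 on fat-poor arrays, a difference of 2.44. Every fat-rich array lay above every fat-poor array for both, and the fat-poor arrays themselves spread over a wide range. For array 8 this adds little, because the average of arrays 2 and 3 gives 4.33 for Pck1 and 4.12 for Cfd.

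Fabp4, the fatty acid carrier of fat cells, averaged 4.56 ± 0.34 in fat-rich arrays and 2.17 ± 1.13 in fat-poor arrays. Pparg averaged 4.04 ± 0.49 in fat-rich arrays and 0.41 ± 0.77 in fat-poor arrays (SD, n = 3 fat-rich and n = 5 fat-poor arrays, here and below). As these arrays were not separate profiles, the SDs may not measure the spread between animals. Retn, the hormone resistin, averaged 4.54 ± 0.49 in fat-rich arrays and 2.07 ± 0.84 in fat-poor arrays. Among the others, Adrb3, the beta-3 adrenergic receptor through which sympathetic nerves start lipolysis, differed by 4.78, and Dgat2, which makes triglyceride, by 4.03. The members that did not pass the rule were Lep, Slc2a4, Lgals12, Nnat and Sfrp5. The leptin gene Lep, well above background on 2 fat-rich and 2 fat-poor arrays, differed by 0.39. The insulin-dependent glucose transporter Slc2a4 differed by 0.66, Lgals12 by 0.51, Nnat by -0.24 and Sfrp5 by -0.29.

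Brown fat cell genes were higher as well. Of 18 measured members, 15 were higher by the rule and 0 lower, with a median difference of 1.99. Ucp1 stood at 6.91, 6.49 and 6.14 on fat-rich arrays 3, 7 and 8, against 1.62, 3.59, 2.90, 0.25 and 2.82 on fat-poor arrays 1, 2, 4, 5 and 6. The difference of 4.28 came with no overlap. Cidea, a droplet protein of brown fat cells, averaged 7.03 ± 0.34 in fat-rich arrays and 3.93 ± 0.74 in fat-poor arrays. Cox8b, a cytochrome oxidase subunit found in brown fat and striated muscle, averaged 3.48 ± 0.63 in fat-rich arrays and -0.88 ± 0.92 in fat-poor arrays. Cpt1b, which admits fatty acids to mitochondria, averaged 5.36 ± 0.45 in fat-rich arrays and 1.33 ± 0.99 in fat-poor arrays, and the amino acid transporter Slc36a2 differed by 4.23.

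Other brown fat genes differed by less or not by the rule. Ppargc1a, a coactivator of mitochondrial genes, differed by 1.24 and the early brown fat factor Ebf2 by 1.24, while Dio2, which activates thyroid hormone, differed by 1.84. The fatty acid carrier Fabp3 differed by 1.61 and the purine receptor P2rx5 by 1.69. The nuclear receptor Ppara was further apart, at 3.49. Elovl3 (-0.55), Otop1 (0.09) and the transcription factor Lhx8 (0.16) overlapped between the sides. Plin5, a droplet protein, was well above background on the 3 fat-rich arrays and on 0 fat-poor arrays, a difference of at least 2.76-fold. It was not among the probes tested, and neither was Zic1, the remaining list member on the array, which differed by 0.73.

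**Figure D1:**
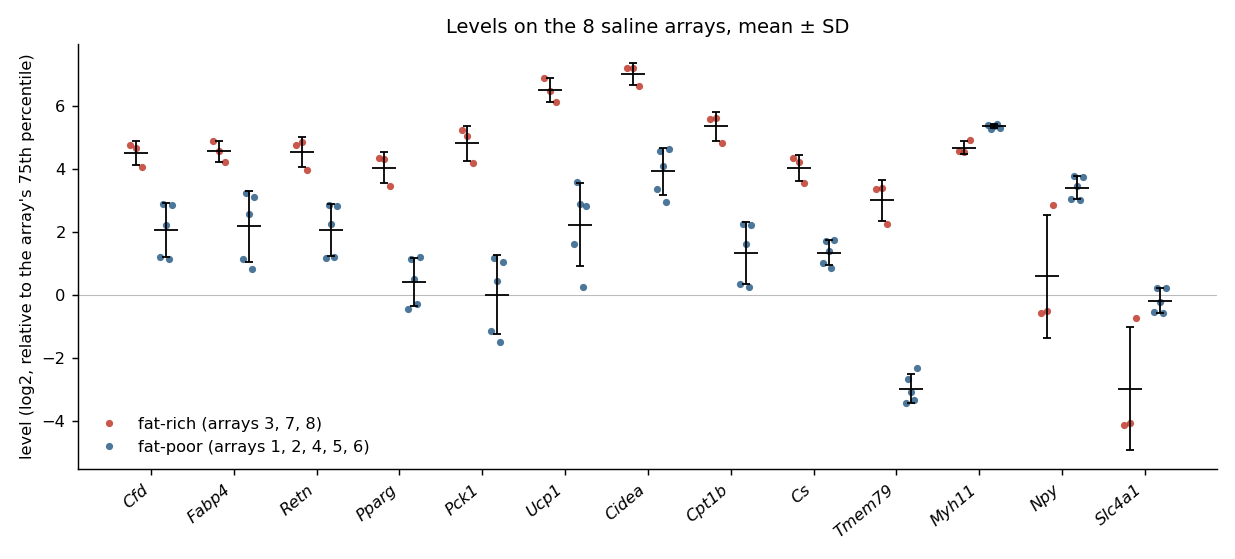
Levels of 13 genes on the 8 saline arrays (log2 relative to the array's 75th percentile, y axis), fat-rich arrays to the left of fat-poor arrays for each gene. Points are arrays and black bars are means ± SD. The fat cell and mitochondrial genes from Cfd to Cs and Tmem79 lie higher on every fat-rich array, and for Npy and Slc4a1 the fat-rich point nearest the fat-poor arrays is array 8.

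The fuel-burning machinery was higher almost throughout. Of 23 measured fatty acid oxidation genes, 21 were higher by the rule, with a median difference of 2.61. The largest difference was that of the uncoupling protein homologue Ucp3 (4.81), and Acaa2, the last enzyme of the beta-oxidation spiral, differed by 3.55. Of 20 citric acid cycle genes, 18 were higher, with a median of 2.28. Cs, citrate synthase, stood at 4.34, 4.22 and 3.56 on fat-rich arrays 3, 7 and 8, against 1.03, 1.70, 1.39, 0.86 and 1.73 on fat-poor arrays 1, 2, 4, 5 and 6. The fat-poor arrays kept within a narrow band for this gene, unlike for Ucp1.

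Of 36 oxidative phosphorylation genes, 31 were higher and 1, the ATP synthase subunit gene Atp5mc1 (-1.17), was lower, with a median of 1.60. The succinate dehydrogenase subunits Sdha and Sdhb differed by 2.53 and 2.41, and Uqcrc1 of complex III by 2.54. Of 20 peroxisome genes 17 were higher, led by Pex6 (4.36) and Pex11a (3.49). Breakdown of branched-chain amino acids had 9 of 18 genes higher. Cytosolic ribosome genes, of which 26 were measured, had 0 higher and 0 lower, with a median difference of -0.15.

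Genes of triglyceride turnover were higher in part. Lipolysis had 11 of 16 genes higher, including Pnpla2, the first lipase of the pathway (3.32), its inhibitor G0s2 (4.68) and the hormone-sensitive lipase Lipe (3.16). Fatty acid uptake and triglyceride synthesis had 15 of 21 higher. Lipogenesis and glucose uptake had 9 of 22 higher. Of 18 adipokine genes 8 were higher, among them Angptl4, an inhibitor of lipoprotein lipase (3.37), and Agt, angiotensinogen, the precursor of angiotensin II (2.58). Of 18 transcription factor genes 11 were higher, led by Rxrg, a retinoid X receptor (4.45), and 2 were lower, the glucocorticoid-responsive Klf15 (-1.31) and Cebpd (-1.06).

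The 2 largest differences among genes taken by the naming rule were not those of fat cell markers. Tmem79, a membrane protein known from skin, stood at 3.38, 3.39 and 2.25 on fat-rich arrays 3, 7 and 8, against -3.45, -2.69, -3.08, -3.36 and -2.33 on fat-poor arrays 1, 2, 4, 5 and 6. Its difference was 5.99. Lim2, a lens membrane protein, differed by 5.27 but was dim on fat-poor arrays, where 1 of 5 was well above background, and with normexp background correction it differed by 2.40. Cxcl14, a chemokine, differed by 4.28, Nts, neurotensin, by 4.58 and the tubulin Tuba8 by 4.59.

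**Figure D2:**
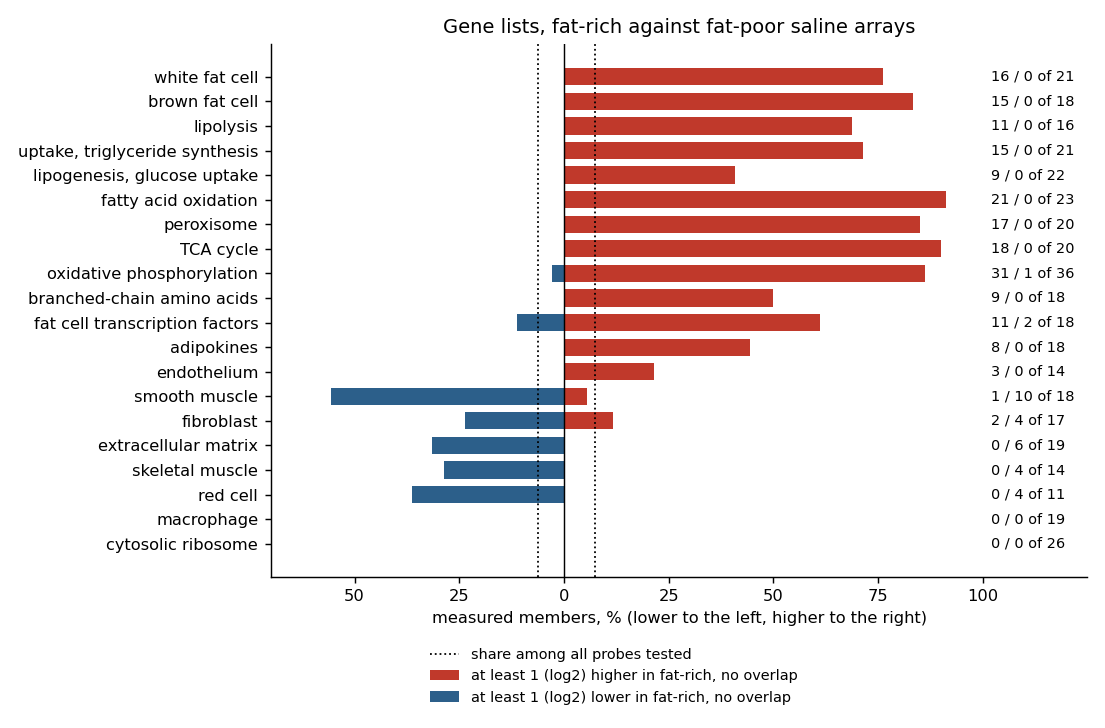
Share of measured members of each gene list that were at least 1 (log2) higher (right, red) or lower (left, blue) in fat-rich than in fat-poor saline arrays with no overlap (x axis, %), with counts higher / lower of measured at the right. Dotted lines mark the shares over all tested probes, 7.46% and 6.17%. Fatty acid oxidation (21 of 23) has the highest share shown, and smooth muscle (10 of 18) the highest share lower.

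Smooth muscle genes of the vessel wall were lower in part. Of 18 smooth muscle genes, 10 were lower by the rule and 1, Rgs5, a marker of pericytes, was higher (1.39). The median was -1.07. The contractile genes Cnn1 (-1.43) and Pln (-1.27) and the potassium channel subunit Kcnmb1 (-1.35) were lower. Myh11, smooth muscle myosin, remained bright on all saline arrays, at 4.59, 4.55 and 4.92 on fat-rich arrays 3, 7 and 8, against 5.41, 5.29, 5.36, 5.44 and 5.30 on fat-poor arrays 1, 2, 4, 5 and 6. Its sides did not overlap, but its difference of -0.67 was under the limit of 1. Acta2, smooth muscle actin, overlapped (-1.18).

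The summed signal of the smooth muscle list was 157.8 to 309.1 times the 75th percentile on fat-rich arrays and 360.4 to 454.4 on fat-poor arrays. For white fat cell genes the sums were 164.9 to 297.5 on fat-rich arrays and 13.5 to 49.2 on fat-poor arrays. For brown fat cell genes they were 235.6 to 386.4 on fat-rich arrays and 19.1 to 50.1 on fat-poor arrays. Levels are relative to each array's own 75th percentile, and what part of the lower values goes with the higher ones was not tested. Extracellular matrix had 6 of 19 genes lower, including Fbln5 of elastic fibres (-1.54) and Spp1, osteopontin (-1.21). Fibroblast genes had 4 of 17 lower, such as Lum (-1.59), and 2 higher, Dpp4 (1.91) and Ly6c (1.09). Without array 8, and also without arrays 4 and 8, 11 of the 19 matrix genes and 9 of the 17 fibroblast genes were lower, whereas smooth muscle had 11 of 18. The count over all 23743 probes grew as well, from 1466 lower to 2735 without array 8 and 2777 without arrays 4 and 8.

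Endothelial genes were mixed. Of 14 measured, 3 were higher and 0 lower. These were Kdr, the main receptor of vascular endothelial growth factor (3.15), the capillary and venous sialomucin Emcn (2.38) and Flt1 (1.01). Pecam1 and Nos3, general endothelial genes, differed by -0.45 and -0.24. The macrophage list had 0 higher and 0 lower of 19, with Mrc1 at -1.39 and Cd68 at 0.82. Without array 8 that list had 5 lower, when 2735 of all 23743 probes were lower. The nerve list had 2 higher, the myelin gene Mbp (3.50) and Prph (1.44), and 2 lower of 17. Over all tested probes 7.46% were higher and 6.17% lower by the rule, so the nerve counts lie near those shares. Skeletal muscle genes had 4 of 14 lower, led by Myh1 (-1.81), and 0 higher. The list of lung, thyroid and thymus genes had 0 of 7 higher or lower, and 1 higher without arrays 4 and 8.

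Npy and 4 of 11 measured red cell genes were lower by the rule, and array 8 decided the count of the red cell genes. Npy, a neuropeptide of sympathetic nerves, stood at -0.58, -0.51 and 2.85 on fat-rich arrays 3, 7 and 8, against 3.04, 3.79, 3.46, 3.02 and 3.76 on fat-poor arrays 1, 2, 4, 5 and 6. Slc4a1, the red cell anion exchanger, stood at -4.15, -4.07 and -0.74 on fat-rich arrays, against -0.55, 0.22, -0.22, -0.59 and 0.22 on fat-poor arrays. Arrays 3 and 7 were far below all others for both, and array 8 was just below the fat-poor arrays. The differences were -2.83 for Npy and -2.80 for Slc4a1, and without array 8 they were -3.96 and -3.93.

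The red cell list had 0 genes higher and a median of -1.97. Without array 8, and without arrays 4 and 8, 10 of the 11 were lower, with medians of -2.82 and -2.85. The 4 lower with all arrays were Slc4a1, the carbonic anhydrase Car2 (-2.25), which other cells make too, and the haemoglobin genes Hbb-bs (-1.97) and Hbb-b1 (-1.16). The haem synthesis gene Alas2 (-2.99) overlapped between the sides. The haemoglobin genes are near-identical copies whose probes may read each other. The platelet genes Pf4 (-2.40) and Clec1b (-2.67) were lower as well. The blood group gene Rhag differed by -3.55, and by -1.12 with normexp background correction. The red cell sum was 270.6 to 668.5 on fat-rich arrays and 697.1 to 961.4 on fat-poor arrays, and its part in the other results was not tested.

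The sizes of the steps between pairs of saline arrays differed between fat cell genes. For Cfd, arrays 3 and 7 exceeded arrays 2 and 6 by 1.84 (the upper step), and arrays 2 and 6 exceeded arrays 1 and 5 by 1.72 (the lower step). Retn had steps of 1.97 and 1.66 and Agt of 1.81 and 2.26, upper step first here and below. The white fat cell list had median steps of 2.36 and 1.96. Mitochondrial lists had most of their difference in the upper step. The median steps were 1.77 and 0.13 for oxidative phosphorylation, 2.34 and 0.39 for the citric acid cycle, 2.69 and 0.89 for fatty acid oxidation, and 2.05 and 0.68 for the brown fat cell list.

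Ucp1 was intermediate, with steps of 3.50 and 2.27, whereas Letmd1, a brown fat mitochondrial protein, had 2.30 and 0.19. Tmem79 had 5.89 and 0.90. Kdr had 2.88 and 1.12. Red cell genes turned direction between the steps, with medians of -3.09 and 0.79. Each step rests on a pair of arrays against another pair, with 2 slides, and was not tested. Each pair also had its own slide position, so that step and position cannot be told apart.

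**Figure D3:**
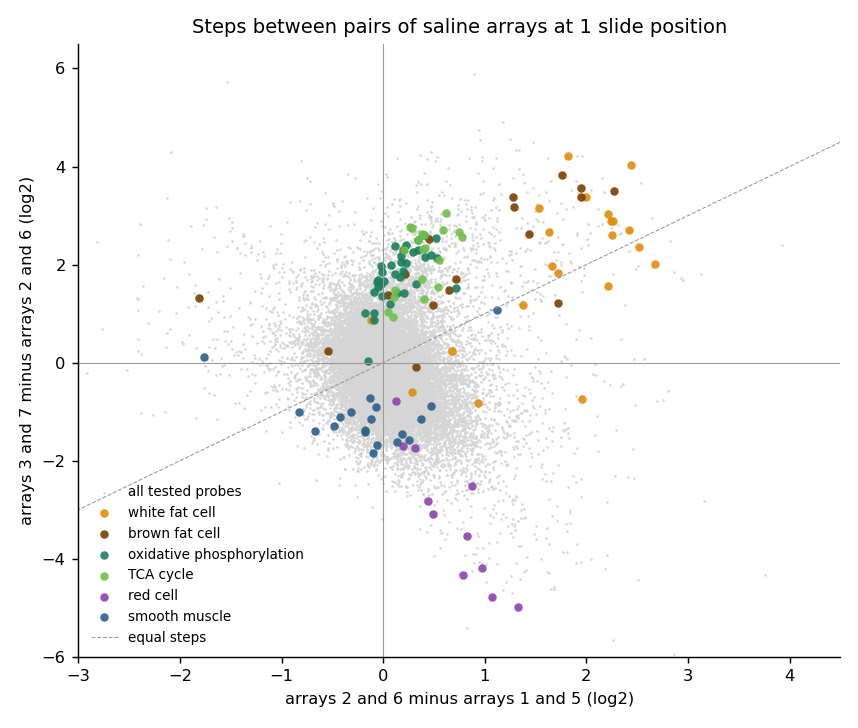
Step between saline arrays 2 and 6 and arrays 1 and 5 (x axis, log2) against the step between arrays 3 and 7 and arrays 2 and 6 (y axis, log2), for all tested probes (grey) and members of 6 gene lists (colours). The dashed line marks equal steps. Most white fat cell genes lie to the right at 1 or more on both axes, whereas most oxidative phosphorylation genes sit near 0 on the x axis with positive values on the y axis.

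The 18 treated arrays showed which of these genes also followed Adipoq in aortas outside the split. Slopes were fitted with limma over all 23743 probes, with treatment and detector gain as covariates (13 residual degrees of freedom), and p-values were adjusted by Benjamini-Hochberg. With a positive slope, 71 probes passed (0.299%, 65 named genes and 6 probes without a symbol), and 1 passed with a negative slope (0.00421%). Of the 71, 67 (94.4%) had been higher in fat-rich saline arrays, and these are 3.78% of the 1772. Of the 1466 lower probes, 0 fell with Adipoq. Without any adjustment 1064 probes had p under 0.05 with a positive slope and 2398 with a negative one. The median slope was -0.08 over all tested probes and 0.05 over those higher in fat-rich arrays. With quantile normalisation the median over all was 0.05.

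Ucp1 had the steepest slope of all 71, 1.36 ± 0.10 (SE, adjusted p = 1.3e-06). Its level in treated arrays was between -0.63 and 3.24 with a median of 1.45 for low-dose SXC, between -0.54 and 3.59 with a median of 2.66 for high-dose SXC, and between -0.84 and 1.92 with a median of 0.89 for valsartan. These ranges overlap one another and reach into that of the fat-poor saline arrays. Cpt1b had a slope of 1.28 ± 0.07 (adjusted p = 2.1e-08) and Gpd1, which makes glycerol phosphate, 1.18 ± 0.11 (adjusted p = 2.0e-05). A slope over 1 means that the level changed by more than that of Adipoq.

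The other genes among the 10 steepest that the naming rule takes were Gys2, a glycogen synthase known from liver (1.31 ± 0.14), Scd, a fatty acid desaturase (1.23 ± 0.16), Tlcd3b (1.18 ± 0.12), Adrb3 (1.104 ± 0.139), Cox8b (0.99 ± 0.14), Slc36a2 (0.96 ± 0.12) and Rxrg (0.94 ± 0.13). Among white fat cell genes 8 of 21 rose with Adipoq, including Pparg (0.85 ± 0.11), Thrsp (0.78 ± 0.12), Pck1 (0.74 ± 0.14), Retn (0.69 ± 0.12) and Fabp4 (0.68 ± 0.08). Among brown fat cell genes 5 of 18 rose: Ucp1, Cpt1b, Cox8b, Slc36a2 and Cidea (0.55 ± 0.10). Cfd did not pass, with a slope of 0.52 ± 0.16 (adjusted p = 0.34), nor did Slc27a2 (1.00 ± 0.23, adjusted p = 0.10) or Ucp3 (1.04 ± 0.22, adjusted p = 0.059).

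Promoters of the rising genes are shown because these genes moved together with Adipoq. Of the 65 named genes, 55 matched a window of 250 bases before to 50 bases after the gene start in RefSeq's GRCr8 table. The half-site AGGTCA, searched on both strands, was in 11 of the 55 (20%), against 15.7% of all 27457 windows. A longer form, TCAAGGTCA, which contains that half-site and is bound by estrogen-related receptors, was in 0 of 55 and in 0.412% of all windows. The direct repeat AGGTCANAGGTCA was in 0 of 55 and 0.0583% of all. A match is only a match of letters, and a missing one says nothing about the factor.

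The windows of the steepest gene, Ucp1, of the second steepest, Gys2, and of Pck1 are printed from 5′ to 3′ along the gene, with AGGTCA in capitals. They lie at chr19:41721372-41721671 (minus strand), chr4:177137187-177137486 (minus strand) and chr3:182348322-182348621 (plus strand) of GRCr8. The Gys2 match starts at position -80 and the Pck1 match at position -144 from the gene start, and the Ucp1 window holds none.
Ucp1: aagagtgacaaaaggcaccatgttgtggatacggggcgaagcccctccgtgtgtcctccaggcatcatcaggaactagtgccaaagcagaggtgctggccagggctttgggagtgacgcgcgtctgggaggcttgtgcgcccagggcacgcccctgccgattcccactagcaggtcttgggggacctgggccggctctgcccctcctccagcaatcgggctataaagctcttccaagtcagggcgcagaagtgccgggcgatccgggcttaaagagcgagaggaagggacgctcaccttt
Gys2: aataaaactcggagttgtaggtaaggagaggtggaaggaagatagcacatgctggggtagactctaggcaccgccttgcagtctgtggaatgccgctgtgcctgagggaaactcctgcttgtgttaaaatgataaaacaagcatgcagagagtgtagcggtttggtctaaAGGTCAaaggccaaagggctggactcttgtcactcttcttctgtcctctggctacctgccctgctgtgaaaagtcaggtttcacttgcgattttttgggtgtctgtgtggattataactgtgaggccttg
Pck1: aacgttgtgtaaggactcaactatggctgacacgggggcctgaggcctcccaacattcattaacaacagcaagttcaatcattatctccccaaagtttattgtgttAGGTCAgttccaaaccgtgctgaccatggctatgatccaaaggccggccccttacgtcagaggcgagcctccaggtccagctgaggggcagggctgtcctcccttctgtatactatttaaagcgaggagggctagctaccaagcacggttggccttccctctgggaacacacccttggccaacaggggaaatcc

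Fatty acid oxidation had 7 of 23 genes rising, such as Acaa2 (0.66 ± 0.10) and the electron carrier Etfb (0.38 ± 0.07), uptake and triglyceride synthesis 7 of 21, such as the lipoprotein lipase gene Lpl (0.91) and Cd36 (0.52), and lipolysis 5 of 16, such as G0s2 (0.71 ± 0.10). Lipogenesis had 4 of 22, including the fatty acid synthase gene Fasn (0.79). The citric acid cycle had 2 of 20, of which Cs had a slope of 0.34 ± 0.05 (adjusted p = 0.0060). Oxidative phosphorylation had 0 of 36 and peroxisome 0 of 20, where 0.299% of all tested probes rose. Of the oxidative phosphorylation genes 31 had a slope above 0, with a median of 0.10, and 36.0% of all tested probes had one. With quantile normalisation the numbers were 32 of 36 genes and 59.8% of all probes, so the share over all probes depends on the scaling.

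Outside fat metabolism, Kdr rose with Adipoq (0.64 ± 0.11, adjusted p = 0.015), as the 1 called gene of 14 on the endothelial list. Mme, neprilysin, a peptidase that cleaves natriuretic and angiotensin peptides, rose too (0.94 ± 0.14, adjusted p = 0.0033). Smooth muscle, fibroblast, matrix, red cell and skeletal muscle lists had 0 called in either direction. Over all tested probes 0.299% rose and 0.00421% fell, so 0 calls in lists of this size say little about their genes. Myh11 had a slope of -0.15 ± 0.05 (adjusted p = 0.34), and Tmem79, which had the largest saline difference among genes taken by the naming rule, one of 0.63 ± 0.17 (adjusted p = 0.26).

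Npy and Slc4a1 were low on treated arrays whatever their Adipoq level. Npy lay between -1.90 and 0.60 on treated arrays, against 3.02 to 3.79 on fat-poor saline arrays, and Slc4a1 between -5.67 and -2.73 on treated arrays, against -0.59 to 0.22 on fat-poor saline arrays. Fat-rich saline array 3 lay inside both treated ranges, at -0.58 for Npy and -4.15 for Slc4a1, and so did array 7. Array 8 lay above them, at 2.85 and -0.74. Arrays 3 and 7 shared slides, scan day and gain with fat-poor arrays. Both lay at slide position 3, which held no fat-poor array, so Adipoq level and slide position cannot be told apart for them. Saline arrays as a whole had slides and a scan day apart from the treated arrays, so that treatment and batch cannot be told apart.

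Of the 71 rising probes 4 were not higher in fat-rich saline arrays by the rule. Scd differed by 0.93, Podxl by 0.98, Bcl3 by 0.62 and Gpld1 by 2.32, and each either overlapped between the sides or was under 1. The 1 falling probe belongs to the olfactory receptor gene Or8g52b (-1.38 ± 0.26, adjusted p = 0.030) and was well above background on 6 of 18 arrays. A test of whether the slope differs between the 3 treatments (limma F-test) called 0 probes. At an unadjusted p under 0.05 it had 1511 of the 23743 probes and 9 of the 71, a larger share of the 71. With 6 arrays per treatment, the lack of calls does not show that the slopes are equal. The calls depend on all groups: without low-dose SXC 7 probes rose, without high-dose SXC 23 and without valsartan 54. Leaving out replicate 1 or 2 of high-dose SXC left 44 and 43. These were the only arrays of that group at the higher gain, and no other group held both gain levels. With either left out, the gain term fitted the other exactly. The 2 runs are therefore nearly the same fit, in effect without both arrays.

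The choice of marker also decided the count. With Fabp4 in place of Adipoq 56 probes rose, with Pparg 64, and with Cfd 0 (2882 probes at an unadjusted p under 0.05 in either direction). With the mean of Cidec and Lipe 2 rose, 0 of them among the 71. Cidec and Lipe were dim in treated arrays, well above background on 9 and 13 of 18, whereas Cfd was so on 17. After treatment and gain were taken out, levels correlated with those of Adipoq at r = 0.25 for Cidec, -0.38 for Lipe and 0.64 for Cfd. For Fabp4 and Pparg r was 0.93 and 0.90. Why the counts differ was not tested.

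**Figure D4:**
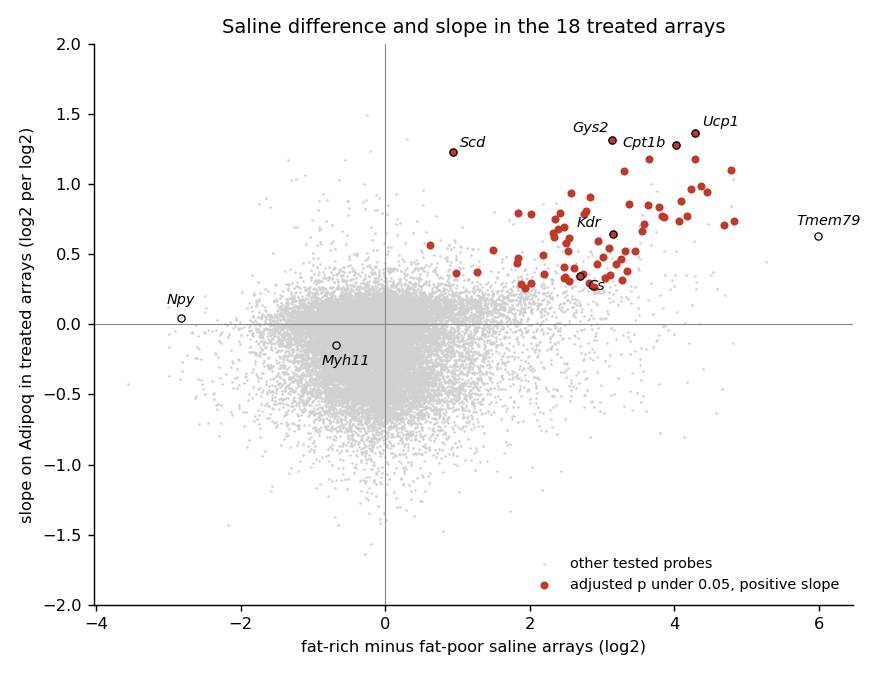
Difference between fat-rich and fat-poor saline arrays (x axis, log2) against the slope on Adipoq in the 18 treated arrays (y axis, log2 per log2) for all tested probes. Red points are the 71 with adjusted p under 0.05 and a positive slope, and named genes are circled. The red points lie to the right, with Ucp1 at 4.28 and 1.36, whereas Tmem79, at 5.99, was not called.

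**Figure D5:**
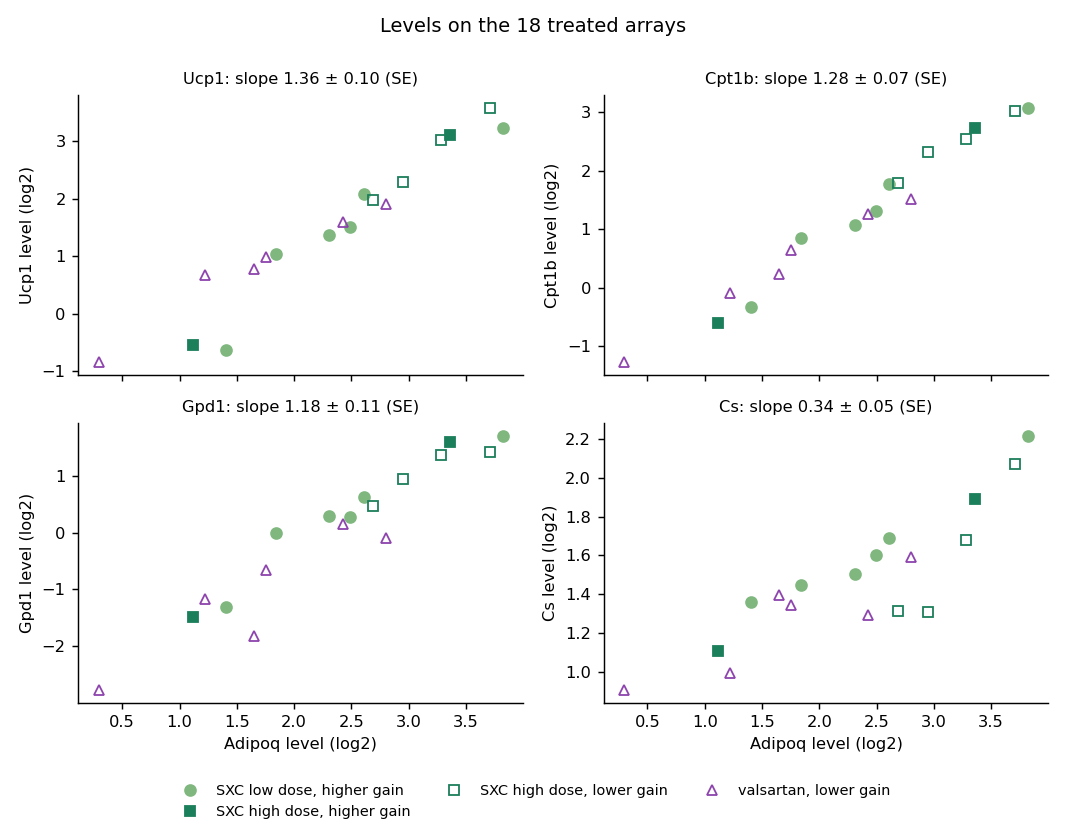
Levels of Ucp1, Cpt1b, Gpd1 and Cs (y axes, log2) against Adipoq (x axes, log2) on the 18 treated arrays. Marker shape and colour give the treatment, filled markers the higher detector gain and open markers the lower. By eye all 3 treatments lie along 1 band per gene, and the slope printed above each panel was fitted over all 3 together.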

How the data were processed

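Total RNA of thoracic aortas was measured on 26 1-colour Agilent arrays, grouped by their titles. The deposited intensity values are the processed signals that the authors' scanner software (Agilent Feature Extraction, version 11.0.1.1) wrote after background subtraction, per the file headers. The deposited flags are other values of 0 or 1. The authors' deposited table holds log2 values of unstated method, with column medians of 5.75 to 5.76, that correlated with their own arrays' scanner values (r at least 0.9993 over 7278 probes); it served as an alternative. Control and outlier spots were left out and spots of a probe averaged. The 75th percentile was taken over spots; over probes, saline arrays 2 and 6 would have had Adipoq levels of 5.04 and 5.07 and joined the fat-rich side.

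Probes well above background (at least 0.5 of their spots) on at least 6 of 26 arrays were tested, Adipoq left out. Of 30367 probes, 18005 matched 1 gene symbol by RefSeq accession (GRCr8 table) and 12362 none; the files name another build. Lists used each gene's brightest probe, and a probe with 0 arrays well above background on 1 side is given as at least N-fold. Slopes came from limma 3.58.1 in R 4.3.3 (lmFit, eBayes with trend, 2-sided, adjusted p under 0.05), and plots from matplotlib 3.10.9.

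The members and lists were chosen with earlier results of these data known. Named genes are the largest saline differences (20 up, 10 down) and the steepest slopes (10 each way) of probes above background, all white and brown fat cell genes, up to 4 members of each other list by size of difference, and 10 set genes; Klf15, Atp5mc1, Ly6c, Car2, Hbb-bs, Lpl, Cd36, Fasn, Podxl, Bcl3, Gpld1 and Or8g52b were named after their values were seen. In simulated treated arrays, 41 of 100 probes with a slope of 0.5 and 67 of 100 with a slope of 1 were called. There were 6 false calls, with 23003 probes fitted in all, those given a slope included. The simulated noise was independent between probes, so deviations shared across an array were not simulated and the false calls may be too few. Normexp (offset 50) used median spot signals. The number of arrays limits precision, and p-values measure the spread between them.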

Additional observations from a re-analysis of the deposited data

Results flagged for a closer look

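On 60 sets of levels (15 genes in 4 groups of 6 or 8 arrays), 4 had an array far from the rest by Dixon's criterion; chance flags about 1 in 20. All 4 are the same array, replicate 1 of high-dose SXC. Its level was -2.44 for Cox8b, where the nearest other array of the group had 0.24. It was -0.60 for Cpt1b, with the nearest at 1.79. It was -1.49 for Gpd1, with the nearest at 0.47, and -1.90 for Npy, with the nearest at -0.12. The Adipoq level of that array was 1.12, the lowest of its group.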

How the results depend on the processing

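Saline counts ranged from 1579 to 2383 higher and from 1044 to 2735 lower when each saline array was left out. With normexp 666 probes were lower, without arrays 4 and 8 2777, and with pairs averaged 2896. At a limit of 2 (log2) 574 were higher and 44 lower. Of 126 named saline differences 3 changed sign, none of them past the limit: Lhx8 without saline array 2 or 6, Elovl3 without array 5 or 8, and Pecam1 without array 7. In treated arrays, leaving out 1 array gave 43 to 78 rising and 0 to 3 falling probes, 38 to 71 rising ones that were also higher in fat-rich saline arrays (38 and 39 without high-dose SXC 2 and 1, 41 without low-dose SXC 2), 0 to 0 falling ones that were also lower, and 0 to 0 whose slope differed between treatments. The runs without high-dose SXC 1 or 2, which set the low ends of the rising counts, each in effect left out both arrays. Falling probes numbered 0 with quantile normalisation, with normexp, with Cfd, or without any 1 treatment. They numbered 2 without the gain term or with Pparg, and 3 with no filter.

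Whether replicate numbers pair the treated arrays was not settled, because differently numbered pairs were not compared. Of same-numbered pairs, 7 of 18 correlated over 0.1 (range -0.56 to 0.64). With the replicate block 6 probes rose, 5 of them also higher in fat-rich saline arrays, and 0 fell. With Cidec and Lipe (Plin1 has no named probe) 2 rose, 0 of them also higher, and 0 fell; with Cfd 0 rose and 0 also higher. Without low-dose SXC 7 rose (7 also higher) and without high-dose SXC 23 (21 also higher). Of the 71, 33.8% had a positive slope on Cidec and Lipe and 100% in the other alternatives run. Reversed slopes on Cidec and Lipe were -0.24 for Acaa2, -0.18 for Acvr1c, -0.18 for Adrb3, -0.0068 for Cpt1b, -0.038 for Cs, -0.011 for Kdr, -0.16 for Mme, -0.11 for Pparg, -0.23 for Scd, -0.19 for Slc36a2, -0.30 for Bcl3, -0.15 for Cd36, -0.10 for Fasn, -0.14 for Gpld1 and -0.073 for Podxl. The cause was not tested. Slide as a random block (correlation 0.15) gave 73 rising probes, and leaving out the 2 dim treated arrays 63. The alternatives with Fabp4, Pparg or Cfd and without dim arrays, those of the difference between treatments, and the list counts without array 8 or arrays 4 and 8, were chosen after seeing the data.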
